A study of Mus musculus with 24 samples.

Results

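Scavenger receptors were followed in endothelial cells of the mouse aorta and skeletal muscle. The group comprised 10 genes chosen by name, Marco, Msr1, Colec12, Scarb1, Cd68, Olr1, Scarf1, Stab1, Stab2 and Cd163, out of 18535 gene symbols to which probes of the array could be matched. Probes were assigned through the RefSeq accession on the array, and 13 of the 41174 probes belonged to 9 of the 10 genes. No probe carried an accession that the gene table pairs with Cd68, the macrosialin of macrophage endosomes, so Cd68 was not analysed here. Of the other 9 genes, Msr1 had 3 probes, Stab1 and Colec12 had 2 each and the rest had 1. The brightest probe of a gene in the tissue was used within a tissue, and the brightest over both tissues was used between them. The choice differed between the tissues only for Msr1.

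Each of 24 single-colour Agilent arrays was hybridised with amplified RNA of live CD105+/CD45- cells that had been sorted from pooled animals. WT mice were C57BL/6, and KO mice carried a homozygous targeted deletion of exons 2 to 4 of the galectin-3 gene (Lgals3) in all of their cells. From 8 weeks of age, male mice of both strains ate either HFD with 60% of its calories from fat or chow with 12% for 8 weeks. Aorta and leg muscle (plantaris, gastrocnemius and biceps femoris) of the same animals, 3 per pool by the study's methods and 3 to 4 by the deposited design text, were taken in each of 3 experiments, which gave 8 groups of 3 arrays. All values below are on a log2 scale on which 0 is the 75th percentile of the processed signals of the same array and 1 unit is a doubling. The level of one probe cannot be set against that of another, and comparisons are made within a gene. In sorted pools, fewer cells of a type and less RNA per cell cannot be told apart.

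Scavenger receptors are a set of structurally unrelated surface proteins that bind modified lipoproteins, glycated and oxidised proteins, microbes and cell debris and carry them into the cell. Class A receptors such as Marco and Msr1 are best known from macrophages, whereas SR-B1 (Scarb1) takes cholesteryl ester from HDL and moves lipoproteins across endothelium. LOX-1 (Olr1) is the lectin-like receptor for oxidised LDL that was first cloned from aortic endothelial cells, and the stabilins (Stab1, Stab2) clear hyaluronan and matrix fragments in sinusoidal endothelium. Galectin-3, which the KO mice lack, is itself counted among the proteins that bind advanced glycation end products.

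The 75th percentile of the processed signal lay between 2390 and 5938 units over the arrays, and 59.5% to 75.7% of spots were well above background. All 13 endothelial markers examined, among them Cdh5, Kdr, Tie1 and the sorted antigen Eng, were well above background on every array. Their summed level, in multiples of the 75th percentile, ranged from 149 to 524 in aorta and from 529 to 808 in muscle. The 18 macrophage genes summed to between 6.49 and 14.7 in aorta and between 2.88 and 41.3 in muscle, and Ptprc, which encodes the CD45 against which cells were sorted, was well above background on 10 of 12 arrays of each tissue. In 11 of 12 matched pairs of tissue, diet and experiment, the array labelled KO gave a higher Lgals3 signal than the WT array, by up to 3.04 log2, and in the HFD aorta of experiment 1 the difference was −0.79. Whether this probe lies outside the deleted exons is not given in the sources used here, so it does not check the labels, and strain was taken from the labels throughout. The 4 arrays of a slide held the 4 groups of 1 tissue and 1 experiment, and experiment 1 was scanned in a session of its own.

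Tissue was the axis along which the scavenger receptors differed most clearly. In aortic cells Marco, Msr1, Colec12 and Olr1 were higher than in muscle cells, by 1.90 to 2.67 log2, and Scarb1 and Scarf1 were lower, by 1.62 and 1.38 log2. Stab1, Stab2 and Cd163 did not pass the test. Of the 9 genes, 4 were therefore called higher in aorta against 16.0% of all 27387 tested probes, and 2 were called lower against 30.1%, at an adjusted p under 0.05 in limma. Either way, 6 of 9 were called beside 46.1% of all tested probes. Msr1 entered these counts only through KO HFD aorta, so its call is not independent of the filter. Each slide held 1 tissue, so a difference of tissues is also a difference of slides, and this test took the arrays of a slide as separate. With the slide as a random block, the calls of Marco and Olr1 were lost, and 7715 of 27387 probes were called. Because so much of the transcriptome separated the tissues, the scaling mattered to the background: the median of all tested probes was −0.27 with the 75th percentile as the reference and −0.01 in the deposited log2 table, and 34.6% against 58.9% of all called probes were then higher in aorta. With that median taken as the reference, the 4 genes lay 2.17 to 2.94 above it and Scarb1 and Scarf1 1.34 and 1.11 below it.

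**Figure D1:**
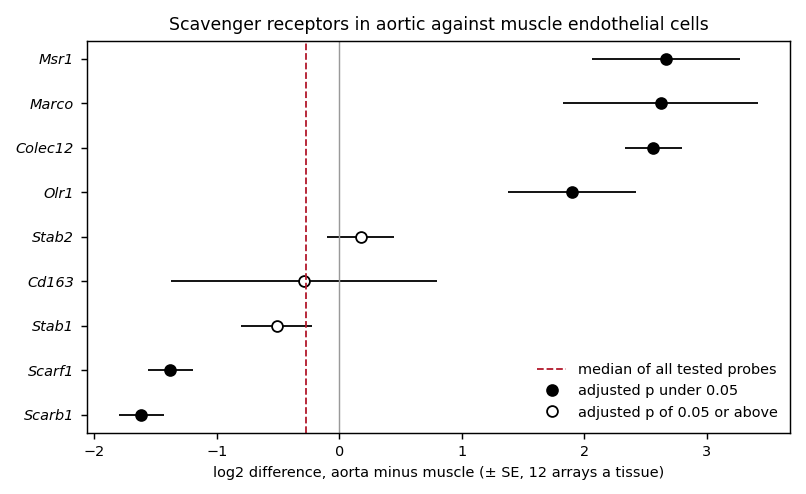
Log2 difference between aorta and muscle (x axis, aorta minus muscle, with its standard error) for the 9 scavenger receptors with a probe (y axis), each over 12 arrays a tissue. Filled points have an adjusted p under 0.05, open points do not, and the dashed line is the median of all tested probes (−0.27); Marco, Msr1, Colec12 and Olr1 lie to its right and Scarb1 and Scarf1 to its left.

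Scarb1, the HDL receptor, was bright on all arrays. In muscle it lay between 5.65 and 6.14 (median 5.85) and varied little, with an SD of 0.14 over 12 arrays, whereas in aorta it ranged from 2.92 to 5.80 (median 4.49) with an SD of 0.86. Only the highest aortic array, that of KO chow in experiment 1, reached the muscle range. The difference of aorta and muscle was −1.62 ± 0.19 log2 (SE), a 3.06-fold lower signal (adjusted p = 1.34e-06), and aorta was the lower tissue in 12 of 12 pools of mice. The 4 muscle groups took the top of the order with means of 5.79 to 5.96, and no neighbours among them differed by more than their SDs. A gap of 0.55 separated them from KO chow aorta, and a further gap of 0.85 separated that group from WT chow aorta, both larger than the SDs on either side.

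Scarf1 encodes SREC-I, an endothelial receptor for acetylated LDL. Its values in muscle ran from 3.60 to 4.36 (median 4.04) and those in aorta from 1.41 to 3.46 (median 2.70). The tissues did not overlap, which held for 5.64% of all probes tested over both tissues. Aorta was lower by 1.38 ± 0.18 log2 (adjusted p = 6.59e-06), again in 12 of 12 pools. Scarf1 showed the same order as Scarb1 at its centre: the muscle groups stood first, KO chow aorta followed with a mean of 3.32 ± 0.12 (SD, n = 3), and the other aortic groups had means of 2.18 to 2.59 that were not separated beyond their SDs. All 13 endothelial markers were also called lower in aorta, beside 30.1% of all tested probes, with a median of −1.08. The part of this shift in the values of Scarb1 and Scarf1 was not tested.

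Colec12, a collectin with a collagen-like stem that binds oxidised LDL and sugars of microbes, went the other way. Muscle arrays read between −0.36 and 1.01 (median 0.16), and aortic arrays between 0.65 and 4.55 (median 2.92). A single aortic array, KO chow of experiment 1, fell inside the muscle range. The aortic level was higher by 2.56 ± 0.23 log2, or 5.91-fold (adjusted p = 6.79e-08), in 12 of 12 pools, and the second, dimmer probe of the gene pointed the same way with medians of 0.07 and −2.83. The 4 aortic groups occupied the top of the order, each mean standing apart from the next beyond the SDs except for the pair of HFD groups at 3.52 and 3.50. Fibroblast markers (Col1a1, Col3a1, Pdgfra, Dcn, Lum) were called higher in aorta in 5 of 5 cases, beside 16.0% of all tested probes, with a median of 4.01. They summed to between 208 and 470 in aorta and between 17.8 and 166 in muscle. Their part in the level of Colec12 was not tested.

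**Figure D2:**
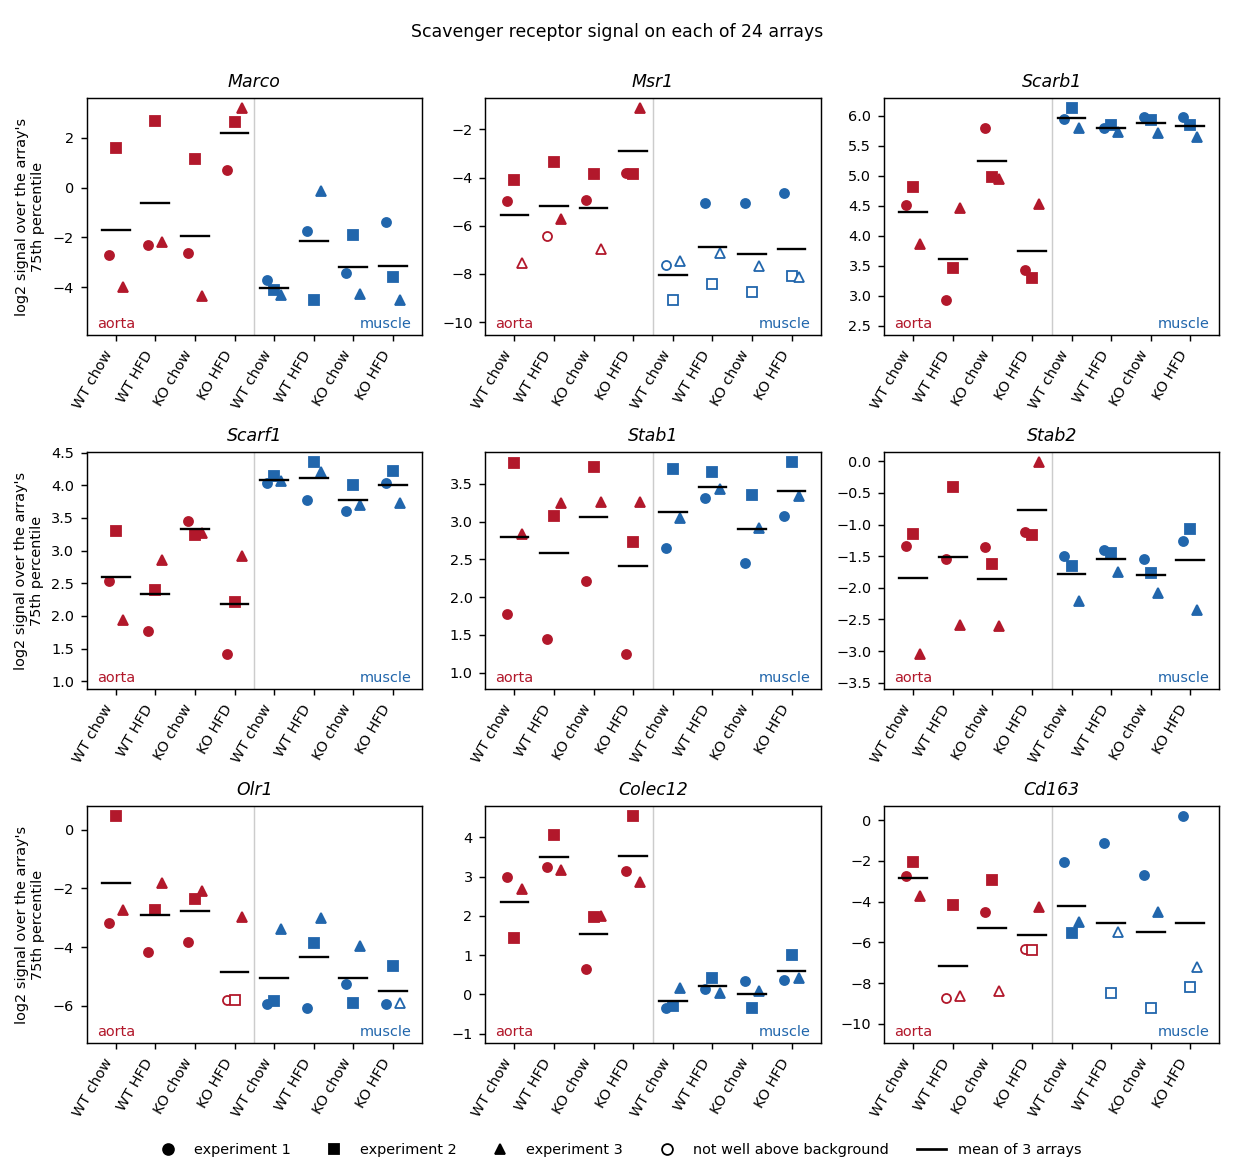
Log2 signal over the array's 75th percentile (y axis) of 9 scavenger receptors on each array, by strain and diet (x axis), with aorta in red and muscle in blue. Symbols give the experiment, open symbols are arrays where the probe was not well above background, and bars are means of 3 arrays; Scarb1 and Scarf1 sit higher in muscle, Colec12 sits higher in aorta, and Marco is high in all 4 aortic groups of experiment 2. Msr1 is drawn from a different probe in each tissue, so its panel does not compare the tissues.

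Marco, the macrophage receptor with collagenous structure, spread widely within the aortic groups. In aorta its WT chow arrays read −2.69, 1.60 and −3.98 in experiments 1, 2 and 3, and its WT HFD arrays −2.31, 2.68 and −2.21. The KO chow arrays read −2.64, 1.16 and −4.36, and the KO HFD arrays 0.71, 2.64 and 3.21. Experiment 2 was thus high in every aortic group, and KO HFD was the group in which the other experiments were high as well. In muscle the values lay between −4.53 and −0.15 (median −3.64). The tissue difference of 2.63 ± 0.80 log2 (adjusted p = 0.0116) was carried in large part by experiment 2, where the mean over 4 pools was 5.56, against 0.84 in experiment 1 and 1.48 in experiment 3. Without experiment 2 it was 1.16 and no longer called (adjusted p = 0.138), and with the slide as a random block the adjusted p was 0.0642. Over all alternatives the adjusted p ranged from 0.00745 to 0.138.

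Msr1, the class A receptor that takes up acetylated LDL in macrophages, was dim. Its brightest aortic probe read −4.99, −4.09 and −7.53 on the WT chow arrays, −6.41, −3.37 and −5.71 on WT HFD, −4.93, −3.85 and −6.98 on KO chow and −3.82, −3.84 and −1.09 on KO HFD, in the order of the experiments. It was well above background on 9 of 12 aortic arrays, including all 3 of KO HFD, and on 2 of 12 muscle arrays. Aorta was higher by 2.67 ± 0.60 log2 (adjusted p = 0.00145) in 9 of 12 pools, with means by experiment of 1.41, 4.71 and 1.88. It was still called but smaller with normexp background correction, at 1.28 (adjusted p = 0.00349), and with the mean of the 3 probes, at 1.42 (adjusted p = 0.0186). KO HFD aorta stood first in the order of groups, 2.24 above the next, a gap larger than the SDs on either side. It was also the only group through which Msr1 entered the tests, so neither its rank nor the tissue difference is independent of that filter. The tissue call was lost without experiment 2, at a difference of 1.65 (adjusted p = 0.0931). Most muscle values lie at background, so this difference is an estimate of a gene that muscle cells showed on few arrays.

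Olr1, the endothelial receptor for oxidised LDL, was well above background on 10 of 12 aortic and 11 of 12 muscle arrays. Aortic values ran from −5.80 to 0.48 (median −2.85), muscle values from −6.09 to −3.01 (median −5.56). Aorta exceeded muscle in 11 of 12 pools and by 1.90 ± 0.52 log2 (adjusted p = 0.00625). The experiments gave means of 1.56, 2.46 and 1.67, closer to each other than for Marco or Msr1. Even so, the adjusted p was 0.0863 without experiment 2 and 0.0518 with the slide as a random block.

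The stabilins and Cd163 were not called between the tissues in the main test. Stab1, on sinusoidal endothelium and some macrophages, lay between 1.24 and 3.77 in aorta and between 2.45 and 3.79 in muscle, a difference of −0.51 ± 0.29 (adjusted p = 0.153). It became a call (adjusted p = 0.0414) with the replicate block by pool of mice, in which the aorta and muscle of the same animals are paired. Stab2, the hyaluronan clearance receptor, differed by 0.17 ± 0.27 (adjusted p = 0.619). Cd163, the receptor of haptoglobin and haemoglobin complexes on macrophages, was well above background on 7 of 12 arrays in each tissue and spanned from −8.72 to −2.08 in aorta and from −9.24 to 0.22 in muscle. Its tissue difference was −0.29 ± 1.09 (adjusted p = 0.84), with a mean of −4.16 in experiment 1 and 3.98 in experiment 2.

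The response to HFD was next examined within each strain and tissue, where the 3 HFD arrays were paired with the 3 chow arrays of the same experiment. No scavenger receptor passed an adjusted p of 0.05 in limma in any of the 4 comparisons, where 0% of all tested probes did in WT aorta, KO aorta and WT muscle and 0.00389% did in KO muscle. An unadjusted p under 0.05 was reached by 1 of 9 members in WT aorta (Cd163) beside 5.77% of all tested probes, and by 5 of 9 in KO aorta (Marco, Colec12, Scarb1, Olr1 and Scarf1) beside 11.3%. In muscle it was reached by none of 8 members in either strain, beside 12.1% of probes in WT and 8.49% in KO. By the methods' test on the 3 ratios of a comparison, 0 of 9 members had an unadjusted p under 0.05 in the aorta of either strain. Beside them, 1218 of 25764 probes did in WT aorta and 1736 of 25639 in KO aorta. The same test gave 0 of 8 members in WT muscle, beside 2118 of 25576 probes. It gave 1 of 8 in KO muscle (Stab1), beside 1287 of 25557 probes. Neither a member nor any other probe passed after adjustment. By the study's criterion, a log2 ratio beyond 1 in the same direction in all 3 experiments, Marco was above 1 in KO aorta, as were 1.81% of all tested probes, and Cd163 was below −1 in WT aorta, as were 0.858%. Cd163 entered the aortic fit only through WT chow, the group compared with HFD here. The filter therefore favoured its fall and its unadjusted p in WT aorta. No member was below −1 in KO aorta (1.12% of all probes) or above 1 in WT aorta (0.735%). In muscle none met the criterion, beside 0.872% of probes above 1 and 0.954% below −1 in WT and 0.459% and 0.530% in KO.

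**Figure D3:**
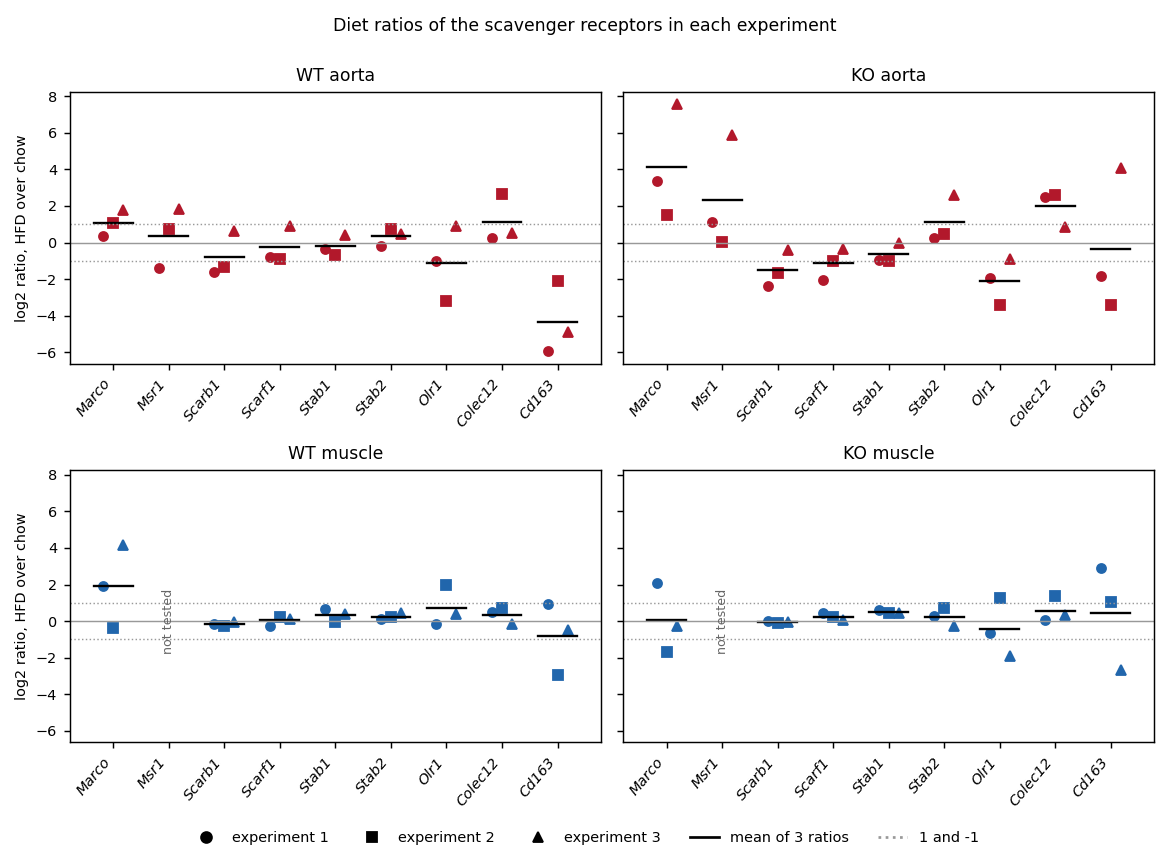
Log2 ratio of HFD over chow (y axis) in each experiment (symbols) for 9 scavenger receptors (x axis) in the 4 combinations of strain and tissue. Bars are means of 3 ratios and dotted lines mark 1 and −1; Marco in KO aorta lies above 1 and Cd163 in WT aorta below −1 in all 3 experiments, and Scarb1 and Scarf1 lie near 0 in muscle.

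In KO aorta Marco had the highest HFD ratio of the 9 genes, with log2 ratios of 3.36, 1.49 and 7.57 and a mean of 4.14 ± 1.04 (SE, adjusted p = 0.326). The study had picked Marco from these arrays, so its presence among the members is not independent evidence of its direction. The paper also reported this rise by qPCR on amplified RNA of the sorted cells, which was not examined here. Its ratios in WT aorta were 0.38, 1.08 and 1.77 (mean 1.08 ± 1.04). The response of KO exceeded that of WT by 3.06 ± 1.46, which did not pass (limma adjusted p = 1). Without experiment 3 the KO mean was 2.42, and without experiment 2 it was 5.47. In muscle the ratios were 1.94, −0.40 and 4.17 in WT and 2.07, −1.67 and −0.26 in KO, with signs that differed among experiments.

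Msr1 and Stab2 were higher on KO HFD than on KO chow aortic arrays in each experiment without overlap between the diets. Msr1 entered the aortic fit only through KO HFD, so its separation was favoured by the filter. Msr1 gave ratios of 1.11, 0.01 and 5.89 (mean 2.33 ± 1.14, adjusted p = 0.488). Its chow array of experiment 3 was not well above background, so the third ratio has no firm size, and normexp gave 4.25 for it. Stab2 gave ratios of 0.24, 0.46 and 2.60 (mean 1.10 ± 0.49, adjusted p = 0.462). Without experiment 3 the means were 0.56 for Msr1 and 0.35 for Stab2. In WT aorta the means were 0.37 ± 1.14 and 0.33 ± 0.49.

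Scarb1 was lower on KO HFD aortic arrays (3.43, 3.29 and 4.53) than on KO chow arrays (5.80, 4.97 and 4.95). The diets did not overlap, and the mean ratio was −1.49 ± 0.54 (adjusted p = 0.42). Scarf1 read 1.41, 2.22 and 2.92 on KO HFD against 3.46, 3.24 and 3.27 on KO chow, a mean ratio of −1.14 ± 0.48 (adjusted p = 0.444). Both genes had ratios below 0 in all 3 experiments. In WT aorta their ratios were −1.59, −1.35 and 0.61 for Scarb1 and −0.77, −0.90 and 0.92 for Scarf1, so that experiment 3 ran against the other two. The summed level of the endothelial markers moved alongside, from 367 to 524 on KO chow to 178 to 314 on KO HFD, and 13 of 13 markers had a mean ratio below 0 in KO aorta (median −0.87) as in WT aorta (median −0.44), none of them called. Whether that list accounts for the lower Scarb1 and Scarf1 was not tested.

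Colec12 on KO aortic arrays went from 0.65, 1.97 and 2.00 on chow to 3.14, 4.55 and 2.85 on HFD, with no overlap and a mean ratio of 1.98 ± 0.56 (adjusted p = 0.375). In WT aorta it went from 2.98, 1.44 and 2.67 to 3.25, 4.07 and 3.18, also without overlap, with a mean of 1.14 ± 0.56 (adjusted p = 0.889). Colec12 was thus higher on HFD in 3 of 3 experiments in the aorta of each strain, and in KO muscle as well, where the diets did not overlap and the mean was 0.58 ± 0.32 (adjusted p = 0.662). The 5 fibroblast markers had mean ratios above 0 in each of the 4 comparisons, with medians of 0.46 in WT aorta, 0.78 in KO aorta and 1.19 in both muscle comparisons, none called, and their part in Colec12 was not tested. The median of all tested probes was within 0.03 of 0 in these comparisons.

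Olr1 read −3.84, −2.36 and −2.08 on KO chow and −5.80, −5.79 and −2.96 on KO HFD aortic arrays, the first 2 of which were not well above background. Its mean ratio was −2.09 ± 0.80 (adjusted p = 0.432) in KO and −1.10 ± 0.80 in WT aorta, where experiment 3 was above 0. Cd163 was −2.76, −2.08 and −3.74 on WT chow and −8.72, −4.18 and −8.65 on WT HFD aortic arrays. Only 1 of those 3 HFD arrays was well above background, so the mean ratio of −4.32 ± 1.42 (adjusted p = 0.727) compares a measured level with one that was mostly at background, and it was −2.64 with normexp. WT chow was the only aortic group through which Cd163 entered the fit, so the filter favoured a fall. In KO aorta Cd163 gave −1.81, −3.41 and 4.10, which went both ways. In WT aorta the mean ratios of macrophage genes had a median of −0.75, those of platelet genes −1.18 and those of adipocyte genes −3.86, without a call, and their part in the value of Cd163 there was not tested.

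Counted by overlap, 5 of 9 members were apart between HFD and chow in KO aorta, where 14.1% of all tested probes were, and 2 of 9 were apart in WT aorta (7.26%). These include Msr1 in KO and Cd163 in WT. Each entered the aortic fit only through its higher group, KO HFD and WT chow respectively, so the filter favoured its separation. In muscle no member of 8 was apart in WT (14.3% of probes) and Colec12 alone in KO (8.97%). Msr1 was not tested in muscle, since it was not well above background on all 3 arrays of any muscle group. Muscle ratios of Scarb1, Scarf1 and Stab2 were small. Scarb1 averaged −0.17 ± 0.19 in WT and −0.05 ± 0.19 in KO, Scarf1 0.03 ± 0.21 and 0.23 ± 0.21, and Stab2 0.25 ± 0.25 and 0.24 ± 0.25. Stab1 was higher on HFD in each experiment in KO muscle, with ratios of 0.62, 0.44 and 0.42 (mean 0.49 ± 0.22, limma adjusted p = 0.603).

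The difference of the HFD responses between tissues, over both strains, was 0.84 ± 0.28 for Stab1 (adjusted p = 0.393) and 1.03 ± 0.43 for Scarb1 (adjusted p = 0.494), in each case higher in muscle. For Colec12 it was −1.09 ± 0.49 (adjusted p = 0.535). None of the 9 members was called, and 0% of all probes were. No member was called for a difference between the responses of KO and WT in aorta or muscle, where again 0% of probes were called. This does not show that the responses were alike. For Cd163 in aorta the difference was 3.95 ± 2.01 (limma adjusted p = 1), with 1 of 3 HFD arrays well above background in each strain. It was 2.35 with normexp background correction and ran from 1.42 to 6.58 when 1 experiment was left out. With all 3 experiments, Cd163 entered the aortic fit only through WT chow, so the filter favoured a positive difference here.

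KO and WT were compared over both diets within a tissue. In aorta the differences ranged from −1.45 ± 0.75 for Olr1 to 1.27 ± 1.27 for Marco, and no member was called beside 0.0116% of all probes (0.00773% higher and 0.00387% lower in KO). In muscle they ranged from −0.64 ± 1.74 for Cd163 to 0.29 ± 0.20 for Colec12, and neither a member nor any other probe was called (0%). Cd163 entered the muscle fit only through WT chow, so the filter favoured a lower value in KO. Scarb1 differed between strains by 0.49 ± 0.34 in aorta and −0.02 ± 0.15 in muscle. All adjusted p values of these strain comparisons were 1, which does not show that the strains were alike.

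Single arrays of a group departed from their group mean in a related way for some receptors. In aorta Marco and Msr1 deviated together (r = 0.855, rho = 0.867, each over 12 arrays), as did Marco and Cd163 (r = 0.85, rho = 0.916) and Msr1 and Cd163 (r = 0.886, rho = 0.881). Scarb1 and Scarf1 were another such pair (r = 0.826, rho = 0.811), Stab1 went with Olr1 (r = 0.834, rho = 0.895), and Stab2 went with Msr1 (r = 0.872, rho = 0.874) and Cd163 (r = 0.787, rho = 0.818). By exact permutation within groups the unadjusted p of these 7 pairs lay between 0.000772 and 0.01 for r and between 0.000772 and 0.0147 for rho. The adjusted p over all 81 relations computed lay between 0.0625 and 0.0903 for r and between 0.0625 and 0.125 for rho, so none passed. When the outermost 2 arrays of the second gene were dropped, r was 0.843, 0.793, 0.863, 0.817, 0.792, 0.907 and 0.709 in the order given. After the means of the slides were removed, r was 0.963, 0.855, 0.847, 0.923, 0.876, 0.899 and 0.745.

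Beside the mean of the 18 macrophage genes, aortic deviations gave r = 0.863 (rho = 0.825) for Cd163, r = 0.819 (rho = 0.741) for Marco and r = 0.682 (rho = 0.594) for Msr1, but −0.08 for Scarb1 and 0.05 for Scarf1. In muscle Cd163 had r = 0.876 (rho = 0.895), Marco 0.492 and Stab1 −0.722. None of the 17 relations to the list passed adjustment. The lowest was that of Cd163 in muscle (exact permutation p = 0.00386, adjusted p = 0.0903), where r within slides was 0.589, and the value of Stab1 in muscle was 0.01 within slides. For Marco the 3 arrays of experiment 2 from WT chow, WT HFD and KO chow stood apart at the upper end, and r was 0.784 without the 2 outermost arrays and 0.69 within slides. On KO HFD aortic arrays the macrophage genes summed to between 6.49 and 11.3, beside 7.26 to 11.7 on KO chow. Their mean ratios had a median of −0.10, whereas the mean ratio of Marco was 4.14. The 7 lymphatic endothelial genes summed to group medians of 54.1 (KO HFD) to 77.9 (WT chow) in aorta. In muscle these medians were 3.19 to 8.4. Not every gene of that list was higher in aorta: Flt4 had medians of −5.03 there and −2.82 in muscle. The paper cites constitutive expression of Marco in lymph node endothelium. The part of lymphatic cells in the values of Marco, Msr1 and Cd163 was not tested.

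**Figure D4:**
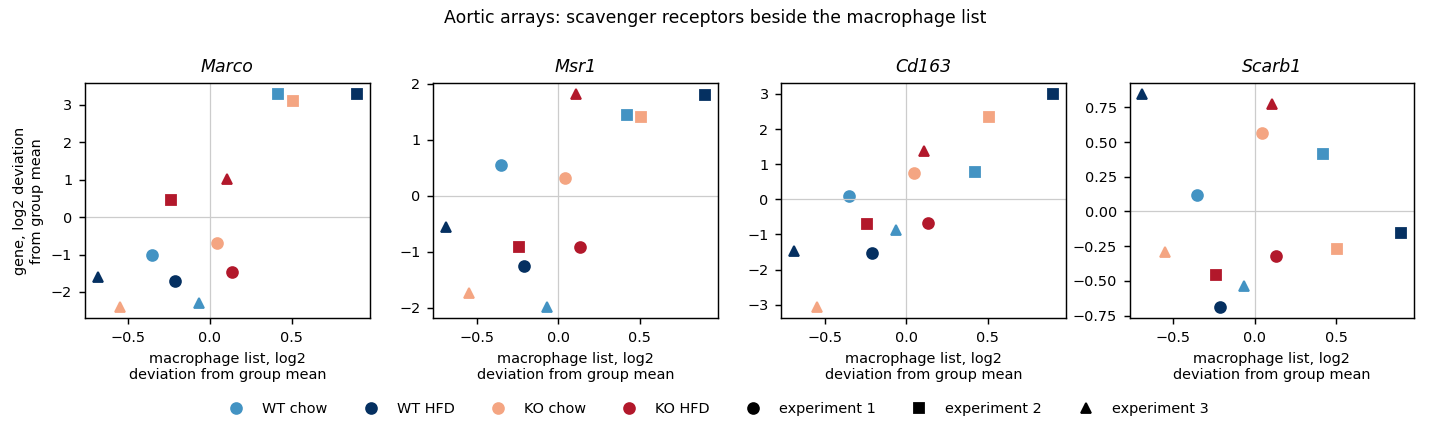
Deviation of a gene from its group mean (y axis, log2) against the deviation of the mean of 18 macrophage genes (x axis, log2) on the 12 aortic arrays, coloured by group with symbols for the experiment. Marco, Msr1 and Cd163 run upwards from left to right (r = 0.819, 0.682 and 0.863) and Scarb1 does not (r = −0.08).

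Promoters were at hand for Marco and Cd163, a pair that deviated together, and are shown so that their sequence can be read beside that pattern. They are from RefSeq on GRCm38.p6, from 250 bases before to 50 after the start of the gene, 5′ to 3′ on the strand of the gene, with capitals for each match to GAGGAA or its reverse TTCCTC, the core of the site of the myeloid factor PU.1. The Marco promoter is at chr1:120504975-120505274 on the minus strand and holds 1 match. The Cd163 promoter at chr6:124304401-124304700 on the plus strand holds none.
Marco: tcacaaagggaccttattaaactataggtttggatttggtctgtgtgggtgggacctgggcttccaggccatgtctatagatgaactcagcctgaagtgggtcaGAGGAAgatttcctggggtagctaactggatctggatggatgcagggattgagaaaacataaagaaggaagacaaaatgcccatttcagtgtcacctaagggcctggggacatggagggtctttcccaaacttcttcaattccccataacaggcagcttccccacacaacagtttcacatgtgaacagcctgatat
Cd163: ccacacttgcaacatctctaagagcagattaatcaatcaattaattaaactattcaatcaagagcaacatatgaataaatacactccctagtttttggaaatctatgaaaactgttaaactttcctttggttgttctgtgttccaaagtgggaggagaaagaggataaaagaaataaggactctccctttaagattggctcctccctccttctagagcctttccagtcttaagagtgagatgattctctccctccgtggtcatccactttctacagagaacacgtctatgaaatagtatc
Of all 32851 promoters in the table, 28.3% hold this motif on either strand. Among the other members with an entry, Cd68 has 2 matches, Olr1 and Stab1 have 1 each and Stab2 has none. The motif was searched with overlaps allowed, and a match is a string of letters in this window and no more.

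Other scavenger receptors, from a list of 15 genes, were read for comparison. Of 14 tested, 9 were called higher and 1 lower in aorta, beside 16.0% and 30.1% of all tested probes. Their median difference was 1.75 beside −0.27 over all probes. Among the called genes were Scara5, a ferritin receptor (6.87 ± 0.61), Scara3 (4.65 ± 0.41) and the collagen receptor Mrc2 (3.97 ± 0.42). Scara5 was well above background on 7 and Mrc2 on 9 of 12 muscle arrays, so the sizes of these differences rest in part on background values. The endocytic receptors Lrp1 (2.88 ± 0.28) and Vldlr (2.74 ± 0.33) were called higher as well. Cd36, a fatty acid transporter of microvascular endothelium, was lower in aorta (−0.72 ± 0.14, adjusted p = 0.000439), as Scarb1, its relative in class B, was. Scarb2, the lysosomal member of class B, was higher in aorta (1.02 ± 0.14), where it read 2.59 to 3.50 against 1.65 to 2.52 in muscle. No gene of this list was called for diet in any of the 4 comparisons. In KO aorta, Mrc2 (2.18, 1.91 and 2.05) and Megf10 (3.47, 2.80 and 1.20) had ratios above 1, and Cd5l (−1.34, −2.20 and −1.56) below −1, in all 3 experiments.

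Of 18 genes that handle the ligands or signals of scavenger receptors, 4 were called higher and 6 lower in aorta, with a median of −0.10. Of all tested probes, 16.0% were called higher and 30.1% lower. With the deposited log2 values 7 were higher and 3 lower, beside 5927 and 4129 of 27387 probes. Hp, the haptoglobin whose complex with haemoglobin is bound by CD163, was 3.27 ± 0.49 higher in aorta, and Soat1, which esterifies cholesterol for storage, 1.61 ± 0.25 higher. Ddost, a protein of the AGE receptor complex to which galectin-3 also belongs, was 0.94 ± 0.18 higher. Lower in aorta were the cholesterol exporter Abcg1 (−1.06 ± 0.18), Lpl (−0.92 ± 0.17) and Npc1 (−0.79 ± 0.15). None was called for diet. Hp was below −1 in all 3 experiments in the aorta of both strains, with mean ratios of −2.58 ± 0.56 in WT (adjusted p = 0.428) and −2.19 ± 0.56 in KO (adjusted p = 0.335).

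The transcripts most like each receptor were found by Pearson's r over 24 arrays after the mean of each tissue was removed, a description that carries no test, since arrays share groups, slides and cell makeup. Scarb1 was closest to Car4 (r = 0.929), Abcb4 (0.927) and Pde2a (0.924), and Scarf1 to Hspa12b (0.911), Elk3 (0.909) and Dgke (0.905). Stab1 was closest to Vwf (0.925), the von Willebrand factor of endothelial granules, and to the endothelial nitric oxide synthase Nos3 (0.875). Msr1 was nearest to Marco among all genes and Marco nearest to Msr1 (0.819), followed for Marco by Clec4g (0.801). Cd163 was closest to Ccl6 (0.843) and Wfdc17 (0.804), Colec12 to Ikbip (0.897) and Slco3a1 (0.895), Olr1 to Mras (0.82) and Stab2 to Scube2 (0.776).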

How the data were processed

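RNA of sorted endothelial cells from 8 groups of tissue, strain and diet was measured on 24 single-colour arrays. Per the labels and file headers, the authors made the processed intensity of each spot with Agilent Feature Extraction and deposited it with median spot and background intensities and spot flags. Their deposited log2 table differs from the log2 intensities only by 1 constant for each array. The number of arrays limits the precision. Here log2(processed intensity / 75th percentile of the array) was computed, outlier spots were dropped and spots of a probe averaged. Probes were named through their accession (27190 of 41174 matched to 1 symbol). Probes well above background on all 3 arrays of at least 1 group of the fit entered the fits (aorta 25865, muscle 25682, all arrays together 27387). Tests used limma 3.58.1 in R 4.3.3 with Benjamini-Hochberg adjustment over all tested probes: diet in 1 fit per tissue with a block for each strain and experiment, strain and tissue on group means. The labels number the arrays by independent experiment, and the deviations of HFD and chow arrays of the same experiment correlated at 0.01 to 0.46 over probes. Replicates are pools of animals from separate experiments. Relations between genes over the 12 arrays of a tissue used 1296 exact permutations within groups, 2-sided. Code was tested on simulated data.

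Alternatives were normexp (offset 50, on median intensities, as the files used here give no mean), quantile normalization, the deposited table, 2 other filters, each experiment left out, the mean of a gene's probes, other blocks and the methods' test on the 3 ratios. The members, the lists of genes and markers and the rule for naming genes (all members, both lists of related genes, and the 3 transcripts most like a member) were chosen with earlier results of these data known. The values of 1 gene of these lists are not reported here.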

Additional observations from a re-analysis of the deposited data

How the results depend on the processing

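The tissue calls of Scarb1, Scarf1 and Colec12 held under every alternative run. Leaving out 1 experiment at a time gave 3 to 6 called members, the 3 without experiment 2, where 8561 of 28710 probes were called. Of all probes, 7715 in place of 12630 were called with the slide as a random block. For diet, no member was called with a replicate block by slide or without one, where 0 to 4 and 1 to 7 of all probes were called in a comparison. With the replicate block by pool of mice, 15402 probes and, among members, Stab1 at −0.51 (adjusted p = 0.0414) were called between tissues. The number of members past 1 in all experiments became 0 in WT aorta among probes well above background on every array, where Cd163 was not tested. There, 51 of 21110 probes were above 1 and 75 below −1. With the mean of a gene's probes the number became 2 in KO aorta, beside 343 above 1 and 215 below −1 of 20120 genes and unnamed probes. With an experiment left out it ran from 1 to 3 in WT aorta, from 1 to 6 in KO aorta and from 0 to 1 in muscle of each strain. Leaving an experiment out also raised the counts over all probes in every comparison. In KO aorta without experiment 3, where 6 members met the criterion, 1522 of 26847 probes were above 1 and 1348 below −1. With all 3 experiments, 468 and 290 of 25865 were. The cause was not tested.

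Of single values, 853 kept their direction and their side of the threshold, and 35 uncalled ones changed sign. With the mean of a gene's probes, the HFD ratio was −0.68 for Msr1 in WT aorta and −0.14 for Colec12 in WT muscle, the muscle minus aorta response of Msr1 was −0.18, and the strain difference of Stab1 in muscle was 0.00. Quantile normalization gave −0.06 for Scarf1 in WT muscle and 0.01 for the KO minus WT response of Stab2 in muscle. Normexp gave −0.00 for the muscle minus aorta response of Msr1 and 0.04 for the strain difference of Stab2 in muscle. With 1 experiment left out, HFD ratios in WT aorta ran from −0.35 to 1.27 for Msr1, −0.84 to 0.07 for Scarf1 and −0.52 to 0.04 for Stab1, and in KO aorta from −2.61 to 1.14 for Cd163. In WT muscle they ran from −0.06 to 0.18 for Scarf1 and −1.71 to 0.23 for Cd163, and in KO muscle from −0.97 to 0.90 for Marco, −1.30 to 0.30 for Olr1 and −0.81 to 1.99 for Cd163. The KO minus WT responses in muscle ran from −0.06 to 0.34 for Scarf1, −0.00 to 0.26 for Stab1, −0.26 to 0.34 for Stab2 and −0.11 to 2.99 for Cd163. Muscle minus aorta responses ran from −1.25 to 2.22 for Msr1 and −0.79 to 0.01 for Stab2. Strain differences in aorta ran from −0.04 to 0.17 for Stab1, −0.21 to 0.86 for Stab2, −0.86 to 0.00 for Colec12 and −0.83 to 0.09 for Cd163, and in muscle from −0.93 to 0.95 for Marco, −0.09 to 0.01 for Scarb1 and −0.09 to 0.09 for Stab2. The tissue difference of Cd163 ran from −2.43 to 1.65.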
